A study of Mus musculus with 6 samples.

Results

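Lysosomal genes of macrophages, 47 in all, were followed after exposure of the cells to extracellular ADP. They encode 10 cathepsins, 3 other peptidases and granulins (here Tpp1, Lgmn and Grn), 8 glycosidases, 5 lipid hydrolases or luminal lipid-handling proteins, 7 membrane proteins, 13 proton pump subunits and accessory proteins, and the transcription factor TFEB. A member counted as measured if a non-control probe carrying its name cleared the well-above-background flag on each of the 3 arrays of at least 1 group. All 47 members passed, out of 19569 features measured on the arrays, 46 by the gene name in the files and Tfeb by the accession of a probe that the files name Tcfeb. All 55 probes of the members were well above background on each of the 6 arrays, so no member passed only through the group in which it read higher.

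The series asked how macrophages respond to extracellular ADP. Bone marrow cells of C57BL/6 mice were grown for 7 d into macrophages (BMDM) in medium conditioned by L929 cells, which supplies M-CSF. The ADP group was stimulated with 100 µM ADP and read at 6 h (n = 3), and the control group, grown in the same way, received a control treatment of 6 h (n = 3). The submitters state that the experiments were independent and used different donors. Total RNA was labelled with Cy3 and hybridised to one-colour Agilent arrays, 1 per sample, so that RNA per cell and numbers of cells of a type cannot be told apart. A level is the log2 processed signal after subtraction of the array's own 75th percentile, and a difference is the ADP mean minus the control mean of such levels. Probe positions are those of the files, on mouse build mm9, whose exon annotation was not used here.

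Lysosomes degrade material taken up by phagocytosis, endocytosis and autophagy, and macrophages are rich in them. A vacuolar-type ATPase, built of a cytosolic ATP-hydrolysing part and a membrane part that carries protons, acidifies the lumen in which cathepsins cut proteins and glycosidases and lipases take apart sugars and lipids. Many genes of these proteins carry a CLEAR element, an E-box motif bound by TFEB and its relatives MITF and TFE3, in their promoters.

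Promoter windows from RefSeq (build GRCm38.p6, 250 bases before to 50 bases after each gene's start) were found for 38 of the 47 members. The E-box core CACGTG, which reads the same on both strands, was present in 12 of the 38 members (31.6%) and in 8.09% of the 27025 genes of the table. The longer CLEAR core TCACGTGA, which contains CACGTG and also reads the same on both strands, was present in 6 members (15.8%) and in 1.12% of all genes. The copies of TCACGTGA in these 6 members are shown because they mark which lysosomal genes carry the letters that TFEB is known to bind, with CACGTG in capitals.
Ctsa promoter, chr2:164833749-164833778, plus strand: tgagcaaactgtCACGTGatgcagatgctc
Ctsa promoter, chr2:164833766-164833795, plus strand: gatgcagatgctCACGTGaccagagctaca
Ctsd promoter, chr7:142387908-142387937, minus strand: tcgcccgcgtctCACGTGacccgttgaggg
Mcoln1 promoter, chr8:3500462-3500491, plus strand: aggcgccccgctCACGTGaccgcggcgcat
Atp6v0d1 promoter, chr8:105566050-105566079, minus strand: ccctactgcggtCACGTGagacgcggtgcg
Atp6v1a promoter, chr16:44139373-44139402, minus strand: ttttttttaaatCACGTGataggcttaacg
Gla promoter, chrX:134601215-134601244, minus strand: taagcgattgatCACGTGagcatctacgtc
Gla promoter, chrX:134601182-134601211, minus strand: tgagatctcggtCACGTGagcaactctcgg
The other 6 members with CACGTG were Atp6v0b, Ctsl, Gaa, Glb1, Lamp1 and Lgmn. Whether a window holds these letters is a description and does not show that a factor binds there.

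The 6 arrays had 50.3% to 51.9% of 59305 spots well above background and no saturated spot. Slide 1 carried ADP 1 with controls 1 and 2, and slide 2 carried ADP 2 and ADP 3 with control 3, each slide being also 1 scan. All 8 macrophage markers, among them Csf1r, Adgre1, Mertk and the member Cd68, were well above background on every array. Their summed linear level was 1425 to 1953 in ADP arrays and 1161 to 1600 in controls. Singly, 5 of the 8 had a difference above 0 and 3 below, from -0.60 for Mertk to 0.80 for Cd14. The osteoclast markers Ocstamp, Dcstamp, Acp5, Ctsk and Mmp9 were above background on every array and Calcr was not, and their sum was 417 to 430 in ADP arrays and 374 to 397 in controls. Most of that linear sum came from Acp5 (log2 means 8.61 with ADP and 8.49 in controls, difference 0.12), and Mmp9 gave -0.47. Of 7 neutrophil markers on the array 5 were above background on every array, with a sum of 31.6 to 38.6 in ADP arrays and 26.9 to 29.2 in controls. Of dendritic cell markers 3 of 6 were, with a sum of 44.6 to 190 in ADP arrays and 44.2 to 168 in controls, and of stromal and endothelial markers 6 of 6, with 18.7 to 23.2 in ADP arrays and 17.99 to 21.2 in controls. Of the T and NK cell, B cell and mast cell markers 2 of 7, 1 of 5 and 1 of 5 were above background on every array, and of 3 erythroid markers 0 were. The sums were 3.27 to 5.43 in ADP arrays and 3.05 to 4.88 in controls for T and NK cells, 5.73 to 6.18 in ADP arrays and 6.42 to 9.49 in controls for B cells, and 0.158 to 0.369 in ADP arrays and 0.0866 to 0.154 in controls for mast cells. The osteoclast, neutrophil, B cell and mast cell sums did not overlap between the groups. Most of the neutrophil sum came from S100a8 and most of the B cell sum from Cd79b. Cd79b gave a difference of -0.35, while the B cell marker Cd79a, not above background on every array, gave 0.42. The mast cell sum came from Tpsb2 alone, which read low (log2 means -2.23 with ADP and -3.09 in controls). The part of these cells in the results was not tested.

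No lysosomal gene passed the test between ADP and control macrophages. At an adjusted p under 0.05 (limma, Benjamini-Hochberg over all 19569 features) 0 members were called, where the share of all features called was 0%. At an unadjusted p under 0.05 limma gave 3 members, Ctsk higher and Ctsc and Lipa lower, which is 6.38% of the members against 12.4% of all features (6.78% higher and 5.58% lower). With quantile normalization the same count was 0 higher and 5 lower, where 2562 of the 19569 features were counted in either direction. The differences of the 47 members lay between -0.44 and 0.38, and 0 members reached 0.5 in either direction, against 9.59% of all features, or 1, against 1.53%. The mean level of 46 members lay above the 75th percentile of the arrays, against 57.6% of all features, Ctse being the exception. The members' 95% intervals reached a median of 0.33 to either side of the estimate.

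**Figure D1:**
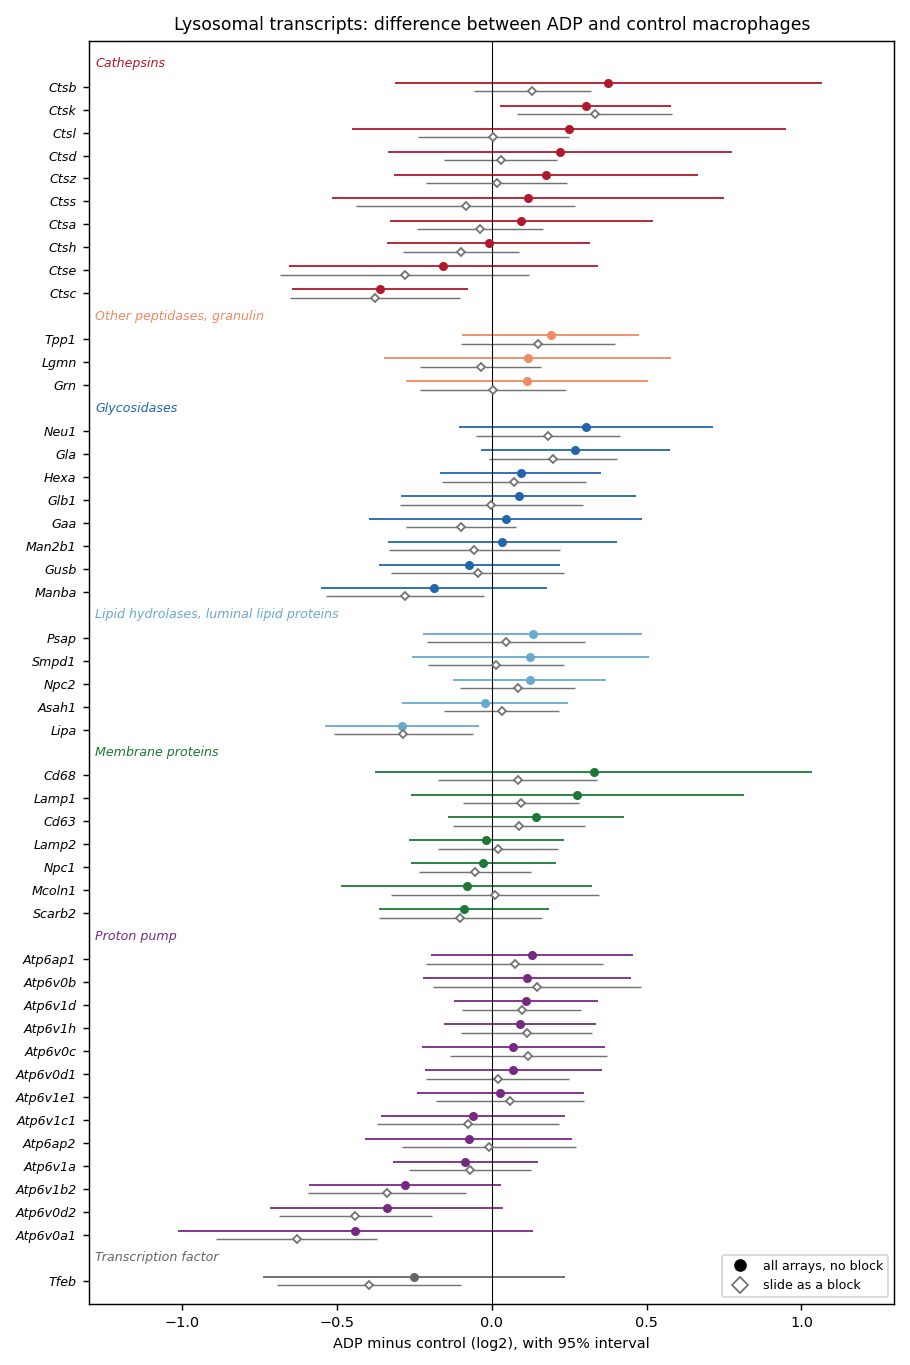
Difference between ADP and control macrophages for each of the 47 lysosomal genes, in log2 units on the x axis, with filled points and coloured bars for the estimate and 95% interval over 3 ADP and 3 control arrays, and open diamonds with grey bars for the same with the slide as a block. The filled points lie between -0.44 and 0.38, and the filled bars of Ctsk, Ctsc and Lipa alone leave out 0.

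The cathepsins, proteases of the lysosomal lumen, had differences on both sides of 0. Of 10 members, 7 read above 0 and 3 below, with a median of 0.15, but the median was -0.04 with quantile normalization and -0.02 with the slide as a block, where 5 were above 0 and 5 below. Leaving out 1 array at a time gave medians from 0.04 (without ADP 3) to 0.30 (without ADP 1), with 0.25 without control 3. Ctsk and Ctsc, whose intervals left out 0, lay on opposite sides of it.

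Ctsk encodes cathepsin K, the collagen-degrading protease best known from osteoclasts, and its probe lies at chr3:95313165-95313224. Its level was 4.94, 4.75 and 4.98 in ADP arrays 1 to 3 and 4.55, 4.70 and 4.52 in controls 1 to 3. Every ADP array read higher than every control array, and the narrowest gap was between ADP 2 and control 2. The means were 4.89 ± 0.12 with ADP and 4.59 ± 0.10 in controls (SD, n = 3 each), a difference of 0.30 ± 0.12 (SE) or 1.23-fold, with an adjusted p of 0.359 (limma). Within slides 1 and 2 the differences were 0.32 and 0.35. The osteoclast marker sum, to which Ctsk itself contributes, did not overlap between the groups either, and its part was not tested.

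Ctsc encodes cathepsin C, a dipeptidyl peptidase that activates granule serine proteases (probe at chr7:95458436-95458495). Its level was 5.08, 5.13 and 4.88 in ADP arrays and 5.35, 5.32 and 5.50 in controls. Every ADP array read lower than every control array. The means were 5.03 ± 0.13 with ADP and 5.39 ± 0.10 in controls (SD, n = 3 each). The difference was -0.36 ± 0.12 (SE), or 0.779-fold, with an adjusted p of 0.314 (limma), and it was -0.26 within slide 1 and -0.50 within slide 2.

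Ctsb encodes cathepsin B, an abundant cysteine protease of endosomes and lysosomes. Its level was 8.28, 9.09 and 9.03 in ADP arrays and 8.17, 8.21 and 8.89 in controls. The groups overlapped, and the 3 high arrays were the 3 of slide 2, whichever the treatment. The difference of 0.38 ± 0.29 (SE; adjusted p = 0.671, limma) was 0.13 ± 0.08 with the slide as a block.

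The other cathepsins had differences within their errors. The aspartic protease gene Ctsd gave 0.22 ± 0.23 (log2, SE), the cysteine protease genes Ctsl, Ctsz and Ctss gave 0.25 ± 0.29, 0.17 ± 0.20 and 0.12 ± 0.26, and Ctsa, a carboxypeptidase that also stabilises beta-galactosidase and the sialidase, gave 0.10 ± 0.18. Ctss, needed to cut the invariant chain of MHC class II, was -0.35 within slide 1 and 0.18 within slide 2. Ctsh, an aminopeptidase, gave -0.01 ± 0.14, and the aspartic protease gene Ctse gave -0.16 ± 0.21. With quantile normalization Ctsa, Ctss and Ctsz turned to -0.10, -0.08 and -0.01. Second probes of Ctsa and Ctsd gave -0.25 and 0.07, so the probes of Ctsa had opposite signs.

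The other peptidases and granulins showed the same kind of spread. Tpp1, the tripeptidyl peptidase gene, had levels of 3.58, 3.53 and 3.79 in ADP arrays and 3.40, 3.37 and 3.55 in controls. ADP 2 read just below control 3 and the other ADP arrays above all controls, with a difference of 0.19 ± 0.12 (SE; adjusted p = 0.593, limma). Lgmn, which encodes the asparaginyl endopeptidase legumain that processes cathepsins, had levels of 8.27, 8.80 and 8.74 in ADP arrays and 8.39, 8.31 and 8.76 in controls. Its lowest array was ADP 1 and its difference was 0.12 ± 0.19, or -0.04 with the slide as a block. Grn, the progranulin gene, had levels of 8.03, 8.33 and 8.31 in ADP arrays and 8.09, 7.87 and 8.37 in controls. These groups overlapped, with a difference of 0.11 ± 0.16 that was 0.00 with the slide as a block and -0.07 with quantile normalization.

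The glycosidases, which remove sugars from glycoproteins, glycolipids and glycogen, likewise lay on both sides of 0. Of 8 members, 6 read above 0 and 2 below, with a median of 0.07, but -0.05 with quantile normalization and -0.02 with the slide as a block, where 3 were above 0 and 5 below. Leaving out 1 array at a time gave medians from -0.02 (without control 2) to 0.18 (without control 3). At an unadjusted p under 0.05 limma gave 0 of the 8, against 12.4% of all features.

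Gla encodes alpha-galactosidase A, the enzyme lacking in human Fabry disease. Its level was 7.46, 7.77 and 7.73 in ADP arrays and 7.29, 7.39 and 7.48 in controls. ADP 1 lay just under control 3 and the other ADP arrays were above all controls. The difference was 0.27 ± 0.13 (SE; adjusted p = 0.462, limma), and 0.12 and 0.28 within slides 1 and 2.

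Neu1 encodes the lysosomal sialidase. Its level was 6.60, 6.84 and 7.05 in ADP arrays and 6.36, 6.44 and 6.78 in controls. On each slide every ADP array read above every control, while across slides ADP 1 lay below control 3. The difference was 0.30 ± 0.17 (SE; adjusted p = 0.544, limma), with 0.20 and 0.17 within slides 1 and 2.

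Manba encodes beta-mannosidase. Its level was 3.57, 3.64 and 3.79 in ADP arrays and 3.75, 3.68 and 4.14 in controls. The groups overlapped, but on each slide every ADP array read below every control. The difference was -0.19 ± 0.15 (SE; adjusted p = 0.691, limma) and -0.28 ± 0.10 with the slide as a block (limma, adjusted p = 0.179).

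The other glycosidases stayed near 0. The beta-hexosaminidase subunit gene Hexa gave 0.09 ± 0.11 (log2, SE), the beta-galactosidase gene Glb1 0.09 ± 0.16, the glycogen-degrading alpha-glucosidase gene Gaa 0.04 ± 0.18, the alpha-mannosidase gene Man2b1 0.03 ± 0.15 and the beta-glucuronidase gene Gusb -0.07 ± 0.12. Quantile normalization turned Hexa, Gaa and Man2b1 to -0.05, -0.05 and -0.11. A second probe of Gaa gave -0.03, the opposite sign of the first.

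Among the lipid-handling members Lipa stood apart from the others. Lipa encodes lysosomal acid lipase, which releases cholesterol and fatty acids from the esters of engulfed lipoproteins (probe at chr19:34567717-34567776). Its level was 6.19, 6.25 and 6.07 in ADP arrays and 6.50, 6.40 and 6.47 in controls. Every ADP array read lower than every control array, and the values did not follow the slide. The means were 6.17 ± 0.09 with ADP and 6.46 ± 0.05 in controls (SD, n = 3 each). The difference was -0.29 ± 0.10 (SE), or 0.818-fold, with an adjusted p of 0.333 (limma), and it was -0.26 within slide 1 and -0.31 within slide 2.

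Npc2, the luminal cholesterol carrier, had levels of 7.54, 7.60 and 7.62 in ADP arrays and 7.39, 7.42 and 7.57 in controls. ADP 1 lay under control 3 and the other ADP arrays above all controls, with a difference of 0.12 ± 0.10 (SE; adjusted p = 0.707, limma), which quantile normalization turned to -0.02. Psap, the precursor of the saposins that help lipid hydrolases, had levels of 7.87, 8.20 and 8.20 in ADP arrays and 7.76, 8.02 and 8.09 in controls. These groups overlapped, with a difference of 0.13 ± 0.15 that quantile normalization turned to -0.05. The acid sphingomyelinase gene Smpd1 gave 0.12 ± 0.16 and the acid ceramidase gene Asah1 -0.02 ± 0.11, with -0.11 from its second probe.

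The 7 membrane proteins had a median of -0.02, with 3 members above 0 and 4 below. None of them had an unadjusted p under 0.05 (limma), against 12.4% of all features. With the slide as a block the median was 0.02, with 5 above 0 and 2 below. Lamp1, a main glycoprotein of the lysosomal membrane, had levels of 8.67, 9.23 and 9.28 in ADP arrays and 8.59, 8.64 and 9.13 in controls. Its 3 arrays of slide 2 were the high ones, and the difference of 0.28 ± 0.22 (SE; adjusted p = 0.691, limma) was 0.09 ± 0.08 with the slide as a block. Cd68, a macrophage relative of the LAMP proteins, had levels of 3.41, 3.99 and 4.02 in ADP arrays and 3.10, 3.26 and 4.06 in controls. The highest array was control 3, and the difference of 0.33 ± 0.29 was 0.23 within slide 1 and -0.06 within slide 2. Cd63, a tetraspanin of late endosomes and lysosomes, had levels of 8.45, 8.71 and 8.72 in ADP arrays and 8.42, 8.50 and 8.53 in controls. ADP 1 lay between the controls, and the difference was 0.14 ± 0.12, or -0.06 with quantile normalization. Lamp2 gave -0.02 ± 0.10, with the opposite sign, 0.02, from its second probe. The cholesterol exporter gene Npc1 gave -0.03 ± 0.10, the calcium channel gene Mcoln1 -0.08 ± 0.17, and Scarb2, whose protein carries glucocerebrosidase to the lysosome, -0.09 ± 0.11.

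The subunits of the proton pump had differences on both sides of 0. Of 13 members, 7 read above 0 and 6 below, with a median of 0.03, which was -0.01 with median scaling, -0.08 with quantile normalization and 0.02 with the slide as a block. Leaving out 1 array at a time gave medians from -0.03 (without ADP 1) to 0.10 (without ADP 2). The lowest 3 were Atp6v0a1, Atp6v0d2 and Atp6v1b2, and the other 10 lay between -0.09 and 0.13.

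Atp6v0a1 encodes an isoform of the large membrane subunit a, which lies beside the proton path (probe at chr11:100924969-100925028). Its level was 4.96, 5.42 and 5.41 in ADP arrays and 5.59, 5.36 and 6.16 in controls. Across the slides the groups overlapped, since control 2 read below ADP 2 and ADP 3, but on each slide every ADP array read below every control. The means were 5.26 ± 0.26 with ADP and 5.71 ± 0.41 in controls (SD, n = 3 each). The difference was -0.44 ± 0.24 (SE; adjusted p = 0.528, limma), or -0.63 ± 0.10 with the slide as a block (limma, adjusted p = 0.0726), with -0.51 and -0.75 within slides 1 and 2. Without control 3 the difference on the remaining arrays, with no block, was -0.21.

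Atp6v0d2 encodes an isoform of the membrane subunit d that is known from osteoclasts and macrophages (probe at chr4:19805367-19805426). Its level was 1.95, 2.07 and 2.12 in ADP arrays and 2.26, 2.20 and 2.69 in controls. Every ADP array read below every control array, and control 3 was the highest. The difference was -0.34 ± 0.16 (SE; adjusted p = 0.456, limma), or -0.44 ± 0.10 with the slide as a block (limma, adjusted p = 0.0817), with -0.28 and -0.60 within slides 1 and 2. Without control 3 the difference with no block was -0.18. A second probe of the gene gave -0.23. Atp6v0d1, the gene of the widely expressed d isoform, gave 0.07 ± 0.12.

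Atp6v1b2 encodes an isoform of the B subunit in the ATP-hydrolysing head. Its level was 2.84, 2.97 and 2.81 in ADP arrays and 3.11, 3.00 and 3.35 in controls. Every ADP array read below every control array, ADP 2 and control 2 nearly meeting. The difference was -0.28 ± 0.13 (SE; adjusted p = 0.455, limma), or -0.34 ± 0.10 with the slide as a block (limma, adjusted p = 0.128). Atp6v1a, the gene of the catalytic A subunit of the same head, gave -0.09 ± 0.10, and its second probe gave 0.08.

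Of the other pump genes, the stalk subunit gene Atp6v1d gave 0.11 ± 0.10 (log2, SE), and its 3 ADP arrays, 6.26 to 6.37, all read above its 3 controls, 6.16 to 6.21. The proteolipid ring genes Atp6v0b and Atp6v0c gave 0.11 ± 0.14 and 0.07 ± 0.12, the accessory subunit genes Atp6ap1 and Atp6ap2 gave 0.13 ± 0.14 and -0.07 ± 0.14, and the head and stalk genes Atp6v1h, Atp6v1e1 and Atp6v1c1 gave 0.09 ± 0.10, 0.03 ± 0.11 and -0.06 ± 0.12. The second probe of Atp6ap1 gave 0.08. Quantile normalization turned Atp6v0c and Atp6v1e1 to -0.08 and -0.06.

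Tfeb, the gene of the transcription factor that binds CLEAR elements, had levels of 0.47, 0.68 and 0.80 in ADP arrays and 0.81, 0.59 and 1.31 in controls. The groups overlapped across slides, and on each slide every ADP array read below every control. The difference was -0.25 ± 0.20 (SE; adjusted p = 0.690, limma), or -0.40 ± 0.12 with the slide as a block (limma, adjusted p = 0.127), with -0.23 and -0.57 within slides 1 and 2. Without control 3 the difference with no block was -0.05.

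Counted over all 47 genes, the groups did not overlap for 6 members (12.8%), against 19.3% of all features. Ctsk and Atp6v1d were the 2 higher ones (10.1% of all features) and Ctsc, Lipa, Atp6v0d2 and Atp6v1b2 the 4 lower ones (9.15% of all features). As shares of the members these were 4.26% higher and 8.51% lower, the latter close to the share of all features. A permutation of 3 against 3 arrays cannot give a p below 0.1.

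Side by side, cathepsins, glycosidases and proton pump subunits had medians within 0.15 of 0 between treatments, and their values by array are given next. For each array the median deviation of a class from its members' means was taken. For cathepsins it was -0.25, 0.21 and 0.27 in ADP arrays 1 to 3 and -0.19, -0.18 and 0.27 in controls 1 to 3. Slide 2 was thus high and slide 1 low in both groups. For glycosidases it was -0.06, -0.02 and 0.18 in ADP arrays and -0.15, -0.16 and 0.18 in controls, a narrower range with ADP 3 and control 3 high. For proton pump subunits it was 0.07, -0.11 and 0.05 in ADP arrays and 0.01, -0.05 and 0.05 in controls, with no order by slide. These medians are descriptions of the classes and were not tested against each other.

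More members were called between the slides than between the treatments. In the fit with treatment and slide together, 12 members (25.5%) differed between slides at an adjusted p under 0.05 (limma), against 20.8% of all features, and all 12 read higher on slide 2, against 13.3% of all features higher and 7.51% lower. Cathepsins made up 6 of the 12. Slide 2 minus slide 1 was 0.74 for Cd68, Ctsb and Ctsl, 0.61 for Ctss, 0.58 for Ctsd, 0.57 for Atp6v0a1 and 0.55 for Lamp1. It was 0.48 for Ctsz, 0.46 for Lgmn, 0.43 for Gaa, 0.40 for Ctsa and 0.36 for Neu1. The median over all members was 0.18, and over cathepsins, glycosidases and pump subunits it was 0.44, 0.27 and 0.04, against 0.05 over all features. The labels give no other batch, and what differed between the slides was not tested.

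**Figure D2:**
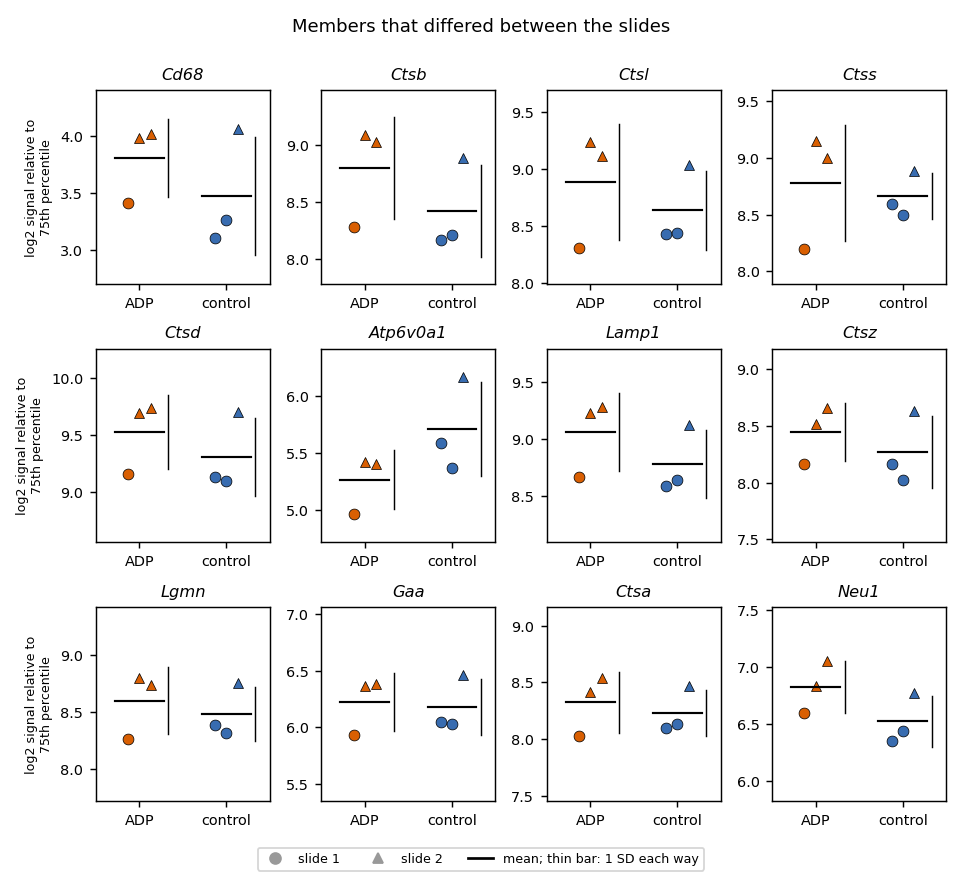
Level (y axis, log2 signal minus the array's 75th percentile) of the 12 lysosomal genes that differed between slides, in ADP and control arrays, with circles for slide 1, triangles for slide 2, a bar for the mean of 3 arrays and a thin vertical bar for 1 SD each way. In each panel the triangles lie above the circles of the same group, and slide 2 minus slide 1 was between 0.36 for Neu1 and 0.74 for Cd68, Ctsb and Ctsl.

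With the slide as a block the treatment estimates had intervals that reached a median of 0.24 to either side. No member passed at an adjusted p under 0.05 in that fit either (limma, 0% of all features), and 8 members (17%) had an unadjusted p under 0.05, against 23.9% of all features. Ctsk was the 1 higher member (11.2% of all features). Ctsc, Lipa, Manba, Atp6v0a1, Atp6v0d2, Atp6v1b2 and Tfeb were the 7 lower ones, 14.9% of the members against 12.7% of all features. The median of all 47 members was 0.01 with the block and 0.09 without it, beside 0.00 and 0.02 over all features. With the block 26 members were above 0 and 21 below, and without it 29 and 18.

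**Figure D3:**
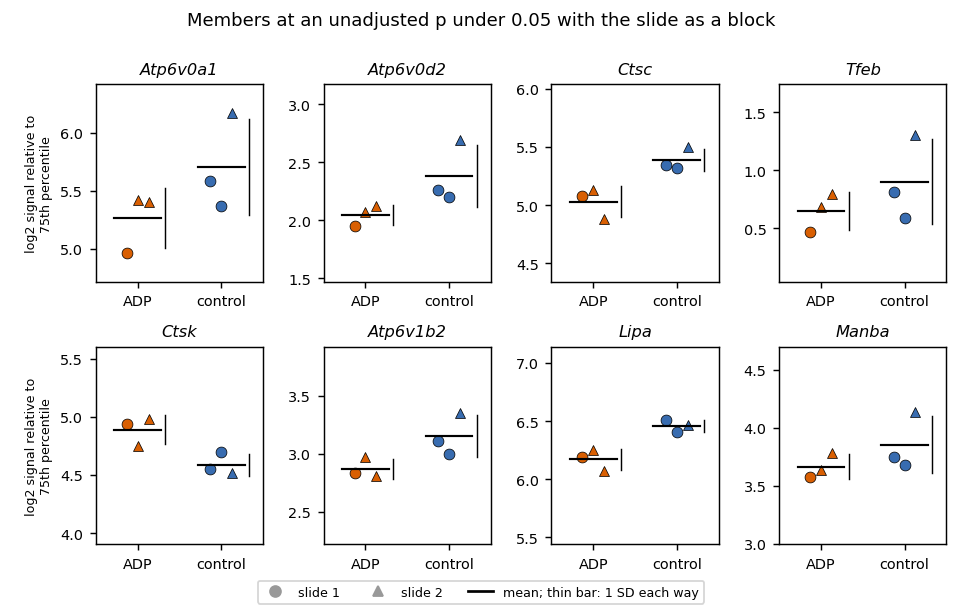
Level (y axis, log2 signal minus the array's 75th percentile) of the 8 lysosomal genes with an unadjusted p under 0.05 once the slide was a block, in ADP and control arrays, with circles for slide 1, triangles for slide 2, a bar for the mean of 3 arrays and a thin vertical bar for 1 SD each way. Ctsk reads higher with ADP, and for the other 7 genes every ADP array lies below every control array of the same slide.

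Within the slides, 23 members (48.9%) had a difference of the same sign on both, against 61.8% of all features. Above 0 on both slides were 11 members, Ctsb, Ctsd, Ctsk, Tpp1, Gla, Neu1, Npc2, Lamp1, Atp6v0c, Atp6v1d and Atp6v1h (23.4%, against 31.6% of all features). Below 0 on both were 12, Ctsc, Ctse, Ctsh, Gaa, Manba, Lipa, Npc1, Atp6v0a1, Atp6v0d2, Atp6v1a, Atp6v1b2 and Tfeb (25.5%, against 30.2% of all features). Slide 1 has 1 ADP array and slide 2 has 1 control array, so each value rests on a single array on one side.

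**Figure D4:**
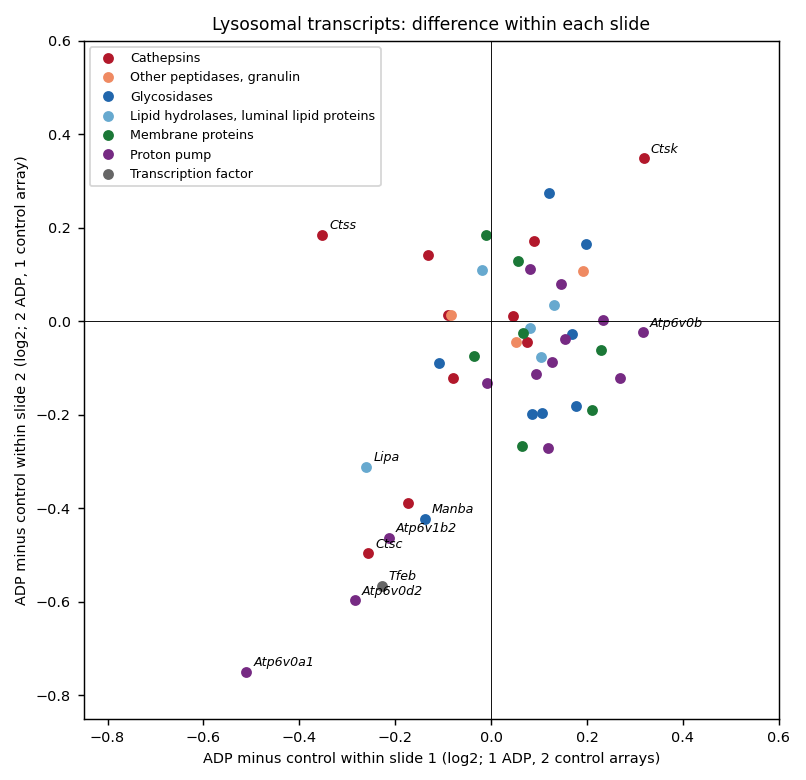
Difference between ADP and control (log2) of each of the 47 lysosomal genes within slide 1 on the x axis (1 ADP and 2 control arrays) and within slide 2 on the y axis (2 ADP and 1 control array), coloured by role. Ctsk lies at 0.32 and 0.35 and Atp6v0a1 at -0.51 and -0.75, and the next lowest pump subunits on slide 2 are Atp6v0d2 at -0.60 and Atp6v1b2 at -0.46.

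Of the settings tried, one gave calls among the members. With the slide as a block and variances trended on signal and fitted robustly, 5 members (10.6%) passed at an adjusted p under 0.05 (limma), against 9.32% of all features. Ctsk was higher (adjusted p = 0.0466; 4.5% of all features were called higher). Atp6v0a1 (0.0204), Atp6v0d2 (0.0271), Ctsc (0.0397) and Lipa (0.0444) were lower, where 4.81% of all features were called lower. The share of members called was close to that of all features. Without control 3 it was 0 members, and without ADP 3 or without control 1 it was 1, Atp6v0a1. The estimates with the slide block were 0.33 for Ctsk, -0.63 for Atp6v0a1, -0.44 for Atp6v0d2, -0.38 for Ctsc and -0.29 for Lipa.

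The 3 members with an unadjusted p under 0.05 on all arrays, Ctsk, Ctsc and Lipa, held no CACGTG in their promoter windows. Their 250 bases before the start are shown for comparison with the CLEAR cores above, from RefSeq on GRCm38.p6.
Ctsk promoter, chr3:95498960-95499209, plus strand: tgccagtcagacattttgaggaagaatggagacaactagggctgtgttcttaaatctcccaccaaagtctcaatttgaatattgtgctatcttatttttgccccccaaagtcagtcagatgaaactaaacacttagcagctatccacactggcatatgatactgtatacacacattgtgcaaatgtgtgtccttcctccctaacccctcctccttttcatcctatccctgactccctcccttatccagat
Ctsc promoter, chr7:88277835-88278084, plus strand: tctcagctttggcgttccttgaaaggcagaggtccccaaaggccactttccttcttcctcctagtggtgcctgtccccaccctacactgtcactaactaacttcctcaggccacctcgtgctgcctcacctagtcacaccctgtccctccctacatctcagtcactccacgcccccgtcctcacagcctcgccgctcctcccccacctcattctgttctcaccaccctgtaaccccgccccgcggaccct
Lipa promoter, chr19:34527475-34527724, minus strand: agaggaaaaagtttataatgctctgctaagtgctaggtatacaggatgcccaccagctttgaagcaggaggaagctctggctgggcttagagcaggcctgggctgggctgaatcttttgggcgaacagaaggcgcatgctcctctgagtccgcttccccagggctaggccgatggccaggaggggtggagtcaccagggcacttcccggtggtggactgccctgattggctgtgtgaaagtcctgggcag
That the letters are missing from these windows says nothing of TFEB itself. The 12 members with CACGTG had a median difference of 0.10 and a range of -0.09 to 0.28, and 0 of them had an unadjusted p under 0.05 without or with the slide block. The 26 members without it had a median of 0.10 and a range of -0.44 to 0.33, with 3 at an unadjusted p under 0.05 (12.4% of all features) and 6 with the slide block (23.9% of all features). The 9 members without a window in the table, among them Ctsb, Atp6v0d2 and Atp6v1b2, had a median of -0.03, with 0 and 2 such members. With the slide as a block the medians were 0.01 with CACGTG and 0.02 without.

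Other genes of the lysosomal pathway were read from further lists. Of 32 other lysosomal hydrolase genes 17 read above 0 and 15 below (median 0.02, and -0.05 with quantile normalization), with 1 at an unadjusted p under 0.05, Pla2g15, a lysosomal phospholipase gene, at -0.56 ± 0.18 (SE; adjusted p = 0.315, limma). Hyal1, a hyaluronidase gene, followed at 0.43 ± 0.20. Of 21 other lysosomal membrane genes 19 were measured, 13 above 0 and 6 below (median 0.01, and -0.04 with quantile normalization), with 0 at an unadjusted p under 0.05 in limma. Beside the counts of both lists, the share of all features at that level was 12.4%. The smallest p of the membrane genes belonged to the channel gene Tpcn1 at -0.44 ± 0.21 and the metal transporter gene Slc11a1 at 0.16 ± 0.11. With the slide as a block, limma gave an unadjusted p under 0.05 to 2 hydrolase genes above 0 and 4 below, and to 3 membrane genes above 0 and 3 below, where the share of all features was 23.9%. Of 12 other pump subunit genes 8 were measured, 5 above 0 and 3 below (median 0.09, and -0.04 with quantile normalization). Atp6v1e2, which was above background on all 3 ADP arrays and on 1 of 3 control arrays, gave 0.73 ± 0.26 (adjusted p = 0.335, limma) but 0.14 with normexp background correction, and Atp6v0a2 gave 0.25 ± 0.16. Of 12 enzyme sorting genes 6 were above 0 and 6 below (median 0.00, and -0.03 with median scaling), with the mannose 6-phosphate receptor gene M6pr at 0.26 ± 0.11 (adjusted p = 0.387, limma) and the adaptor gene Gga2 at -0.28 ± 0.18.

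All 8 measured genes of 9 cathepsin inhibitors read above 0 (median 0.26), while 6 did so with quantile normalization (median 0.09) and 5 with the slide as a block (median 0.07). Slpi, a secreted leukocyte protease inhibitor gene, had levels of 7.52, 7.55 and 7.78 in ADP arrays and 7.23, 7.32 and 7.24 in controls. All its ADP arrays read above all controls, with a difference of 0.35 ± 0.11 (SE; adjusted p = 0.314, limma), or 0.19 with quantile normalization. The stefin genes Stfa3 and Stfa2 gave 0.36 ± 0.11 and 1.67 ± 0.49 (adjusted p = 0.298 and 0.291, limma), Stfa2 being above background on 3 of 3 ADP and 2 of 3 control arrays and giving 0.78 with normexp background correction. Stefin A genes are near-identical copies of each other, so which copy the probes report is uncertain. These 3 had an unadjusted p under 0.05 in limma, where 6.78% of all features were higher at that level, and Stfa2 was kept only through its ADP arrays. The neutrophil marker sum given above did not overlap between the groups either, and its part was not tested.

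Among the TFEB family and its regulators, 10 of 16 genes read above 0 and 6 below (median 0.06), and 8 of 16 above 0 with quantile normalization. Mitf, a TFEB relative, had levels of 4.05, 4.79 and 4.21 in ADP arrays and 5.06, 5.04 and 5.29 in controls. Every ADP array read below every control, with a difference of -0.78 ± 0.21 (SE), or 0.583-fold, and an adjusted p of 0.271 (limma). Tfec, another relative, had levels of 1.47, 1.34 and 1.75 in ADP arrays and 0.90, 1.34 and 0.83 in controls. The groups overlapped, since ADP 2 lay just under control 2, and the difference was 0.50 ± 0.18 (adjusted p = 0.343, limma). Of 9 measured autophagy genes of the CLEAR network, out of 11, 8 read above 0 (median 0.18, also with the slide as a block) and 7 with quantile normalization (median 0.12). Uvrag, a subunit gene of the class III PI3-kinase complex, had levels of 5.66, 5.63 and 6.08 in ADP arrays and 5.14, 5.21 and 5.43 in controls, with no overlap and a difference of 0.53 ± 0.16 (SE; adjusted p = 0.293, limma). Vps18, of the HOPS tethering complex, gave 0.26 ± 0.15. In the fit with the slide as a block and trended robust variances, 7 of the 15 further genes named here had an adjusted p under 0.05 (limma), where 9.32% of all features passed. Hyal1 (0.0425), Stfa3 (0.0234), Slpi (0.0397) and Uvrag (0.0457) were higher, and Pla2g15 (0.0308), Tpcn1 (0.0204) and Mitf (0.0208) were lower. These genes were named for their small p without the block, so the count is not set against that share.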

How the data were processed

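Spot intensities were deposited as scanner output of Agilent Feature Extraction (version 10.7.1.1, per the file headers and the submitters' processing notes), under a one-colour protocol that subtracts background and detrends within the array, without scaling between arrays. The value table of the series, also deposited, matched the mean log2 intensity of each probe within 0.001 for 100% of 55681 probes. Its column medians were 20.7, 21.9 and 22.7 for ADP 1 to 3 and 18.7, 20.3 and 22.0 for controls 1 to 3.

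Control spots were left out here, and so were outlier spots unless every spot of the probe on that array was flagged. The remaining spots of a probe were averaged, and log2 processed signals were taken relative to each array's 75th percentile over these probe averages. Over all non-control spots, before averaging, the 75th percentile was 455 to 549. Probes well above background on all 3 arrays of a group were kept (26581), and a gene was its brightest kept probe. For the 8 members with 2 kept probes the difference of the second probe is given too. Cross-hybridisation of probes was not checked. The arrays' number limits the precision.

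ADP and control arrays were compared with limma 3.58.1 in R 4.3.3, two-sided, with Benjamini-Hochberg adjustment over 19569 features and a threshold of 0.05. The fit was also tested on simulated data, in which the changes were larger than the difference of any member. That test therefore does not bear on changes of the members' size. Groups and replicate numbers came from sample titles. Alternatives were normexp (offset 50), quantile or median scaling, the unscaled value table, other filters and probe rules, trended robust variances, the slide and replicate number as blocks, and leaving out each array. Values in every array are given for members with an unadjusted p under 0.05, for the 3 members of each role with the smallest p, and for Tfeb; each further list adds its 2 smallest p. Slpi, Atp6v0d1, Atp6v1a and Atp6v1d were given further values after theirs were seen. The members and lists were chosen with earlier results of these data known. Names were updated through RefSeq of GRCm38.p6.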

Additional observations from a re-analysis of the deposited data

How the results depend on the processing

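Of the 47 members, 20 kept one sign in all 19 alternative settings, 12 higher (Ctsb, Ctsk, Tpp1, Gla, Neu1, Smpd1, Lamp1, Cd68, Atp6ap1, Atp6v0b, Atp6v1d and Atp6v1h) and 8 lower (Ctsc, Manba, Lipa, Scarb2, Atp6v0a1, Atp6v0d2, Atp6v1b2 and Tfeb), and 27 turned sign in at least 1. Over these settings Ctsk ranged from 0.26 to 0.37, Ctsc from -0.41 to -0.28 and Lipa from -0.38 to -0.23. Some of the 19 settings could not turn a sign. The other filters, the trended robust variances without a block and the replicate block left every member's difference unchanged. The slide block with trended robust variances repeated the differences of the slide block. The median difference of the members, 0.09, was -0.0598 with quantile normalization and -0.0325 with quantile normalization and the slide block. Members called at an adjusted p under 0.05 were 0 in every setting run except the slide block with trended robust variances, with 5. That count, taken without each array in turn after the data were seen, ranged from 0 to 6: it was 0 without control 3 and 1 without ADP 3 or without control 1. The 6 members whose groups did not overlap became 10 with quantile normalization, with or without the slide block, 1 with the unscaled value table, and 7 to 21 without each array in turn. The share of all features was not taken in these settings, so these counts cannot be set against it. Features at an unadjusted p under 0.05 numbered 2419, but 1147 without ADP 3, 1363 without control 1, 1553 in the value table and 4669 with the slide block. Deviations of same-numbered ADP and control arrays from their group means correlated at 0.42, -0.40 and 0.43. Number 2 alone was split over the slides. Arrays of unlike number on the same slide gave 0.45 (ADP 1 with control 2) and 0.47 (ADP 2 with control 3). These correlations therefore cannot tell pairing from slide. The labels do not say that the numbers mark pairs, and they were not taken as such. With the replicate number as a block 0 members were called, and the smallest adjusted p of a member was 0.378 (limma). Each number holds 1 ADP and 1 control array, so that block cannot change a difference. The median of the members was thus 0.09, as without it. The causes of these changes were not tested. Leaving out an array can only keep or raise the count of members whose groups do not overlap, so the direction of that change was fixed beforehand. With 3 arrays a group, the members' 95% intervals reached a median of 0.33 to either side, or 0.24 with the slide block.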
